A study of Arabidopsis thaliana with 18 samples.

Results

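The wild-type leaf was compared between its margin and its center in 6 of the 18 RNA-seq libraries of the series, 3 of Col-0 margin and 3 of Col-0 center, chosen by their labels alone. Col-0 is the standard laboratory strain of Arabidopsis thaliana and is the wild type here, with none of the tcp mutations. The other 12 libraries come from the same pieces of leaf in the double mutant tcp2tcp4 and the quadruple mutant tcp2tcp3tcp4tcp10, with 3 libraries per group, and enter below only where the wild-type difference is set beside theirs. Growth was under long days (16 h light, 8 h dark, 23 °C), and leaf 5 was harvested as leaf 7 emerged, 6 h after lights on (Zeitgeber time 6). Each leaf was divided on a cold plate, and each library holds that piece from 15 to 20 plants, so a value is a mean over pooled plants. The sources used here do not give where the line between margin and center ran. The lines were started at intervals of 2 days to bring them to 1 stage, so plant age and genotype cannot be told apart.

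A young leaf stops dividing from the tip towards the base, and cells then expand, build chloroplasts and differentiate into stomata, veins and mesophyll. The margin is a signalling zone of its own, where auxin is made and where regulators of blade growth are expressed. CIN-class TCP transcription factors, of which TCP2, TCP3, TCP4, TCP10 and TCP24 are targets of the microRNA miR319, are known to end the phase of division in the blade. The comparison asked how gene expression in the normal leaf is distributed across its width.

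In all, 2113 of 17763 loci tested (11.9%) differed between margin and center at an adjusted p under 0.05, the threshold for every call below. Of these, 990 were higher in the margin (5.57% of loci tested) and 1123 were lower (6.32%). Most differences were small. The median size among the called loci was 0.52 on the log2 scale, where 1 is a 2-fold difference, and 448 loci (2.52%) differed at least 2-fold, 171 higher and 277 lower. The median over all loci tested was 0.0031. Margin and center libraries with the same number deviated together and are taken as pieces of 1 leaf pool, and with the pool as a block 3946 loci were called (22.2%), 2046 higher (11.5%) and 1900 lower (10.7%). Counts with the block are given beside those groups of genes where they differ by more than 1.5 times.

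The 3 margin libraries held 6389212, 9034025 and 7780230 reads in genes and the 3 center libraries 8701937, 8486801 and 8644800. Margin library 1 stood apart. In it 8.6% of reads aligned to several places and 0.104% of gene reads came from the chloroplast genome, against 4.35% to 4.97% and 0.0197% to 0.0248% in the other 5. Without leaf pool 1, 1300 loci were called, 585 higher and 715 lower, and without margin library 3, 1425 were called. The first principal component of the 6 libraries held 50.8% of the variance and set the margins (−30 to −25.9) apart from the centers (26.4 to 29.8). The second held 18.6% and placed both libraries of leaf pool 2 (−26.7 and −15.3) below the other 4 (0.27 to 24.6).

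Markers of leaf tissue were present and those of other organs were at or near 0. Of 4 shoot meristem markers, STM, WUS and KNAT1 had no read in any Col-0 library and CLV3 had 1. Of 5 root markers, EXPA7 and PLT1 had no read, and the 5 summed to at most 0.86 CPM (counts per 1000000 reads in genes, scaled between libraries). The flower meristem marker LFY had no read. Among the leaf's own cells, all 4 markers of dividing cells were called lower in the margin, where they summed to 72.8 to 82.8 CPM against 130 to 152 in the center. Of 7 companion cell and phloem markers 4 were called higher, SUC2, SWEET11, APL and HA3. SWEET12, SEOa and CALS7 were not called (adjusted p = 0.214, 0.955 and 0.417). The 7 summed to 497 to 532 CPM in the margin and 313 to 351 in the center. Of 6 guard cell markers 3 were called higher, and the 6 summed to 191 to 206 and 153 to 169 CPM. The 4 trichome markers overlapped, at 17.7 to 19.8 and 16.1 to 21 CPM. In bulk samples such as these, fewer cells of a type and less RNA per cell cannot be told apart.

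The strand of counting is not given in the sources used here, so reads of genes that overlap a neighbour cannot be assigned with certainty. Among those described here these are WRKY29, AIR3, RGF6, AK3, BCAT4, GSTF11, TCP3, CDKB2;1, CKS2, AUR1, CCS52B, CYCD3;1, PILS5, IAA27, CKX5, ABCG14, GA2, BRL3, BES1, XCP1, PP2-A1, GTR2, APR2, PSAD-2, CA1, PRK, PORC, PORB, CRD1, BHLH38, FER1, CYP71A13, TUB1 and TUB6. Near-identical copies, as among the antenna genes, the beta tubulins TUB2 and TUB3, and CYP79F1 and CYP79F2, may share reads, and their separate values are uncertain.

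Single genes of transport, defense and auxin were among the largest rises in the margin. In the values that follow, the 3 numbers for each piece are leaf pools 1, 2 and 3 in that order. PHT1;4 (AT2G38940), a phosphate transporter known mainly from roots, was at 11.2, 10.9 and 9.04 CPM in the margin and at 0.364, 0.991 and 0.12 in the center. Its log2 difference was 4.37 ± 0.41 (SE from the fit to all 18 libraries, 3 per group, adjusted p = 1.02e-07). WRKY29 (AT4G23550), a transcription factor of the response to bacterial flagellin, was at 6.36, 6.6 and 5.6 CPM against 0.121, 0.372 and 0.48 (4.19 ± 0.36, adjusted p = 1.35e-09). For both genes every margin library was above every center library, as the rule for their choice required. AIR3 (AT2G04160), a subtilisin-like protease first found as auxin-induced in roots, was at 59.7, 45.9 and 55.7 CPM in the margin and 11.9, 8.79 and 10.8 in the center (2.35 ± 0.12, adjusted p = 2.13e-14), the lowest p among genes with a symbol. ELI3-1 (AT4G37980), an alcohol dehydrogenase induced by pathogens, was at 167, 156 and 173 CPM against 58, 54.4 and 56.7 (1.55 ± 0.092, adjusted p = 7.44e-12).

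Of the 15 largest rises among genes with a symbol, at least 5 CPM and no overlap between groups, several encode enzymes and carriers. They include the chitinase gene ChiC (AT4G19810) (1.96 ± 0.22, adjusted p = 1.81e-07), the polyol and monosaccharide transporter gene PMT6 (AT4G36670) (1.64 ± 0.22, adjusted p = 4.16e-06) and DOGT1 (AT2G36800), for a glucosyltransferase that acts on brassinosteroids (1.61 ± 0.26, adjusted p = 9.23e-05). HPL1 (AT4G15440), named as a hydroperoxide lyase gene, was at 9.63, 6.11 and 10.6 CPM in the margin and 3.64, 2.48 and 2.88 in the center (1.53 ± 0.31, adjusted p = 0.00193). PP2-A5 (AT1G65390), of a family of phloem lectins, was higher by 2.74 ± 0.44 (adjusted p = 3.51e-04), with pool 2 at 11 CPM and the other margins at 4.82 and 4.16. The remaining genes of this set belong to the auxin, blade, iron, nitrogen and sulfur groups described below.

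More genes fell than rose at least 2-fold, and the largest falls were of several kinds. MLP28 (AT1G70830), a major latex protein gene, was at 3.1, 7.82 and 4.02 CPM in the margin and 124, 141 and 131 in the center (−4.66 ± 0.21, adjusted p = 5.85e-09). JKD (AT5G03150), a zinc finger protein that patterns the root ground tissue, had 1 read in the 3 margin libraries together and 154 in the center, a center to margin ratio of 131 (95% counting interval 23.2 to 5210, adjusted p = 8.9e-09). RGF6 (AT4G16515), for a secreted growth factor peptide, was at 0.344, 0.977 and 0.718 CPM against 8.49, 9.41 and 10.8 (−3.72 ± 0.35, adjusted p = 9.1e-08). In these 3 genes every margin library was below every center library, which the rule for their choice also required. CYP708A3 (AT1G78490), a cytochrome P450, was at 0.86, 3.05 and 0.718 CPM in the margin and 19.9, 21.5 and 22.7 in the center (−3.67 ± 0.29, adjusted p = 1.88e-07). DOT1 (AT2G36120), named for the vein defects of its mutant, was at 0.688, 0.855 and 1.29 CPM against 6.91, 5.57 and 5.89 (−2.67 ± 0.28, adjusted p = 9.87e-08). WAT1 (AT1G75500), a tonoplast auxin transporter, showed a modest fall of high precision, from 141, 151 and 156 CPM in the center to 66.7, 71 and 73.9 in the margin (−1.08 ± 0.062, adjusted p = 2.52e-13).

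Some loci without a symbol separated further, and 2 are given here, chosen after their values were seen. AT3G16660 was at 69.5, 73.4 and 64.3 CPM in the margin and 1.7, 1.61 and 1.44 in the center (5.44 ± 0.16, adjusted p = 2.31e-20), the lowest p of any locus tested. AT5G22580 was at 2.06, 2.81 and 1.58 CPM against 81, 101 and 93.8 (−5.38 ± 0.17, adjusted p = 1.53e-14). The margin and center libraries of both lay far apart.

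**Figure D1:**
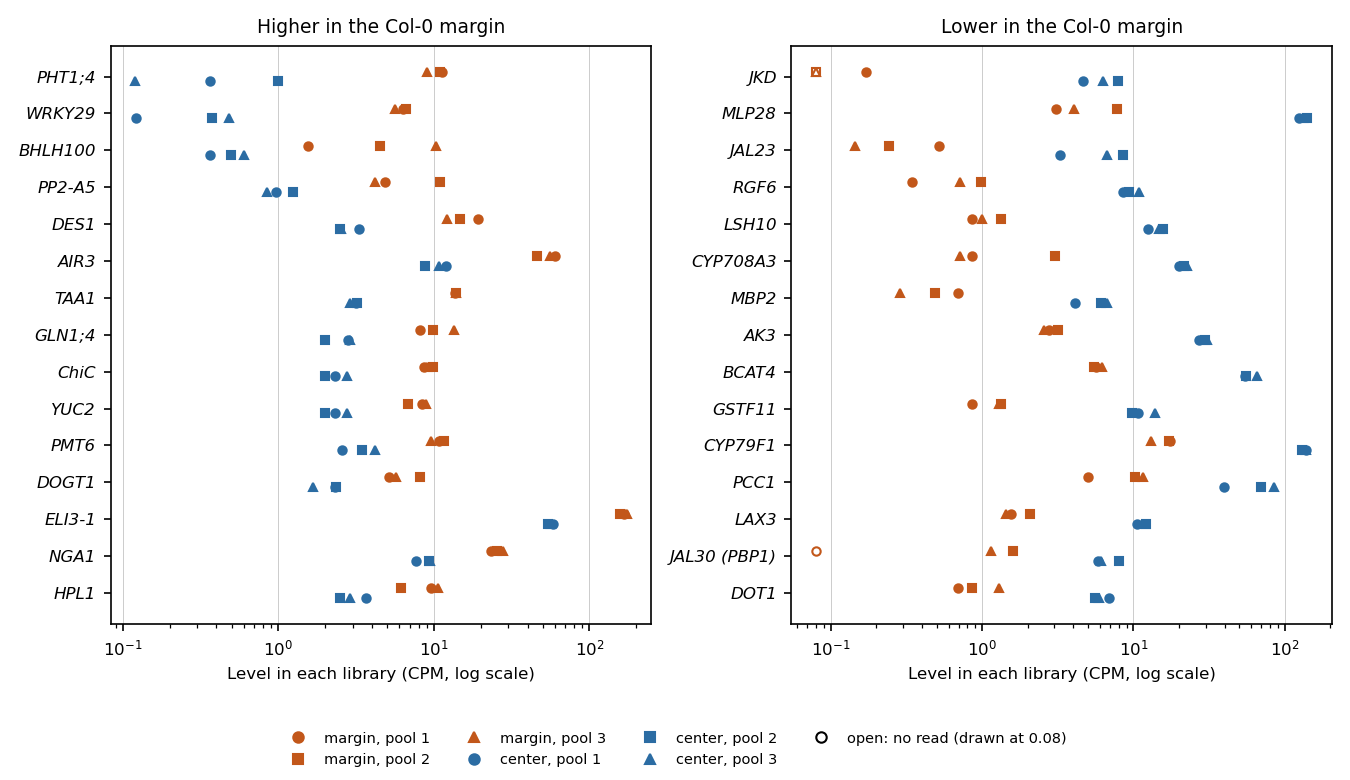
Levels in each of the 6 Col-0 libraries (CPM, log axis) for the 15 genes with a symbol that rose most and the 15 that fell most in the margin, with margin in orange, center in blue and 1 marker shape per leaf pool. The groups do not overlap for any of them, as the rule for their choice required. BHLH100 (AT2G41240) ranged among the margins from 1.55 to 10.3 CPM.

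Of the 9 class II TCP genes tested, 5 were higher in the margin and 1 lower, with a list median of 0.47. The 3 CIN genes without a miR319 site stood highest in the margin relative to the center. TCP17 (AT5G08070) was at 3.96, 4.03 and 5.02 CPM against 1.21, 1.61 and 1.56 (1.56 ± 0.28, adjusted p = 2.58e-04). TCP5 (AT5G60970) was at 12.6, 9.4 and 13.2 CPM against 4.49, 5.32 and 5.16 (1.22 ± 0.17, adjusted p = 1.07e-05). TCP13 was at 10.5, 11.7 and 14.4 CPM against 4.85, 5.2 and 7.33 (1.08 ± 0.19, adjusted p = 2.3e-04). Among the miR319 targets, TCP4 (AT3G15030) and TCP10 were higher by smaller amounts. TCP4 was at 115, 99.8 and 114 CPM in the margin and 80.7, 73.2 and 83.7 in the center (0.47 ± 0.089, adjusted p = 7.64e-04). TCP10 was at 78.6, 81.6 and 79.8 CPM against 63.4, 64.5 and 56.7 (0.38 ± 0.087, adjusted p = 0.00395). The other miR319 targets overlapped between the pieces. TCP2 was at 63.5, 60.8 and 65.9 CPM against 63.7, 66.4 and 65.7 (−0.043 ± 0.074, adjusted p = 0.782), and TCP24 at 59, 54.2 and 62.3 CPM against 50.9, 54.2 and 56.3 (0.12 ± 0.073, adjusted p = 0.339). TCP3 had few reads and did not pass the test, at 1.72, 3.42 and 3.3 CPM against 1.33, 1.73 and 2.88 (0.53 ± 0.31, adjusted p = 0.305).

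TCP1, of the other branch of class II, had no read in the margin and 41 in the 3 center libraries, so it was at least 11.6-fold lower in the margin against a floor of 3 counts over the group (adjusted p = 7.66e-05). Class I TCP genes, known to promote growth, had 2 of 9 members lower and none higher, with a median of −0.099. TCP15 was at 26.7, 23.9 and 22.7 CPM in the margin and 36, 39.8 and 36.2 in the center (−0.62 ± 0.081, adjusted p = 3.36e-06). TCP7 was the other (−0.23 ± 0.076, adjusted p = 0.0478), and its call was lost in 9 alternatives, with adjusted p from 0.0579 with RLE scaling to 0.299 without margin library 2, and 0.15 with DESeq2. The remaining members, TCP8, TCP14, TCP19, TCP20, TCP21, TCP22 and TCP23, ranged from −0.23 to 0.39.

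**Figure D2:**
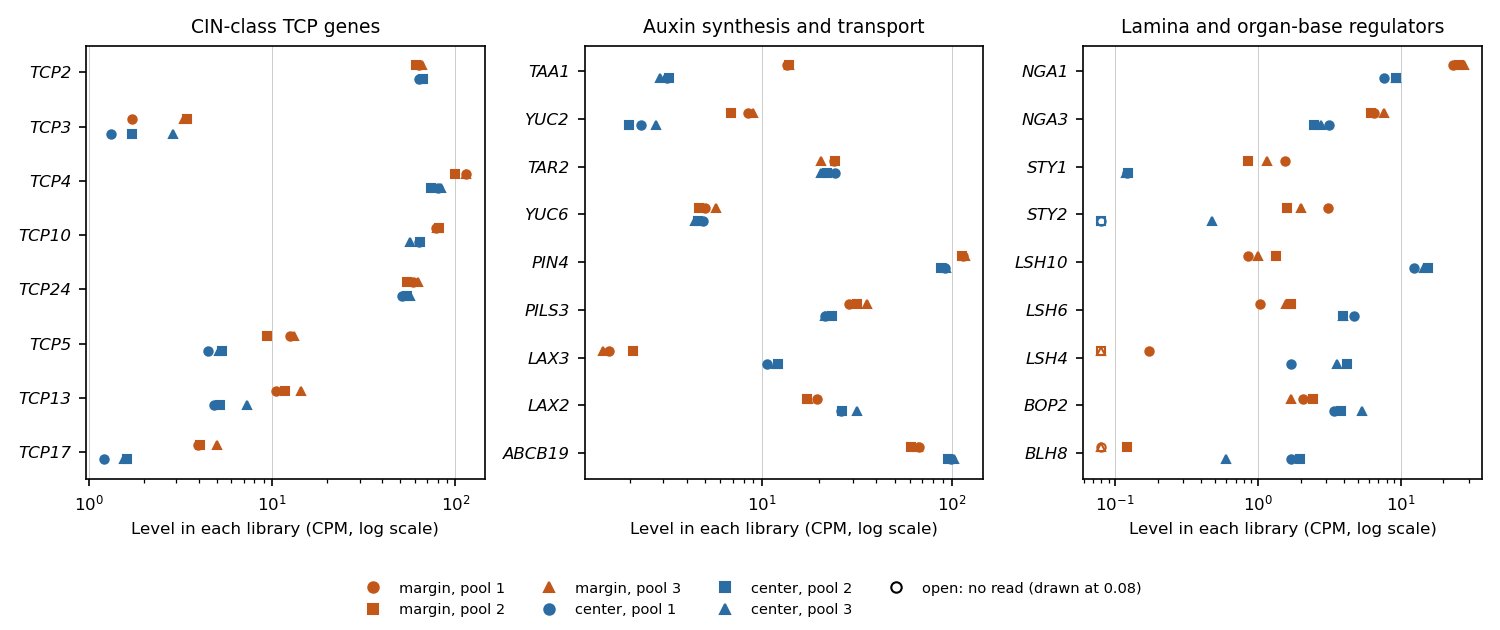
Levels in each Col-0 library (CPM, log axis) of CIN-class TCP genes, of auxin synthesis and transport genes, and of regulators of blade and organ base, with margin in orange, center in blue and 1 marker shape per leaf pool. TCP5, TCP13 and TCP17 separate fully, TCP2 and TCP24 overlap, and LSH10 (AT2G42610) lies at 0.86 to 1.34 CPM in the margin against 12.4 to 15.7 in the center.

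Auxin synthesis was represented by 5 tested genes of the route from tryptophan, of which 2 were higher in the margin. TAA1 (AT1G70560), the aminotransferase of the first step, was at 13.6, 13.9 and 13.8 CPM in the margin and 3.15, 3.22 and 2.88 in the center (2.15 ± 0.17, adjusted p = 2.63e-10). YUC2 (AT4G13260), a flavin monooxygenase of the second step, was at 8.43, 6.84 and 8.9 CPM against 2.3, 1.98 and 2.76 (1.76 ± 0.23, adjusted p = 3.54e-06). Their relatives TAR2 (0.044 ± 0.099, adjusted p = 0.841) and YUC6 (0.14 ± 0.2, adjusted p = 0.726) overlapped between the pieces. In this fit the calls thus lay in 1 tested member of each step. With DESeq2 3 genes of the list were called higher, and without the low count filter 4 were higher and 1 lower. YUC4, at 0.619 CPM or below in each library, was too low to compare.

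Carriers of auxin were split, with 4 of 19 higher in the margin and 4 lower, and with the block 4 and 7. LAX3 (AT1G77690), an importer, was at 1.55, 2.08 and 1.44 CPM in the margin and 10.6, 12.1 and 11.9 in the center (−2.74 ± 0.2, adjusted p = 4.83e-11). The importer LAX2 (−0.64 ± 0.094, adjusted p = 2.07e-05) and the exporter ABCB19 (−0.62 ± 0.061, adjusted p = 2.14e-08) were lower by less. On the other side, PIN4 was at 115, 113 and 118 CPM in the margin and 92.7, 88.2 and 93.8 in the center (0.33 ± 0.068, adjusted p = 0.00118). PILS3, a carrier of the endoplasmic reticulum, was higher by 0.54 ± 0.11 (adjusted p = 0.0015). The other rises, of LAX1 and PILS5, were lost without margin library 2 (adjusted p = 0.236 and 0.089), margin library 3 or center library 3, and the count of lower carriers was 7 with the leaf pool as a block.

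Auxin response genes had 2 of 38 higher and 9 lower, with a median of −0.088, and with the block 6 and 10. The count of higher members was 1 without margin library 1, margin library 2, center library 3 or pool 1. ARF6, an activator of auxin responsive genes, was at 28, 27.7 and 29.6 CPM in the margin and 47.3, 51.6 and 53.1 in the center (−0.83 ± 0.075, adjusted p = 3.62e-09). IAA27, of the Aux/IAA repressors, was at 13.6, 13.8 and 11.8 CPM against 23.2, 20.7 and 21.7 (−0.74 ± 0.11, adjusted p = 2.2e-05). Of the enzymes that conjugate auxin to amino acids, some were lower and 1 was higher. GH3.6 was at 1.03, 0.366 and 0.718 CPM in the margin and 4.49, 5.82 and 3.12 in the center (−2.71 ± 0.4, adjusted p = 3.28e-05). GH3.17 had no read in the margin and 42 in the center, at least 11.9-fold lower against the same floor (adjusted p = 4.4e-05). GH3.3 rose, from 0.12 to 0.364 CPM in the center to 0.431 to 1.71 in the margin (2.53 ± 0.65, adjusted p = 0.00985), and was not called without margin library 2 (adjusted p = 0.0856) or center library 3 (adjusted p = 0.0505).

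Some regulators of blade growth were higher in the margin, while 7 of the 13 margin and lamina genes tested were not called. NGA1 (AT2G46870), one of the NGATHA factors that shape the outer blade and the style, was at 23.2, 25.5 and 27.8 CPM in the margin and 7.64, 9.29 and 9.37 in the center (1.54 ± 0.14, adjusted p = 3.82e-09). NGA3 was at 6.54, 6.23 and 7.61 CPM against 3.15, 2.48 and 2.76 (1.27 ± 0.23, adjusted p = 3.72e-04). STY1 and STY2, which activate auxin synthesis genes, had few reads, most of them in the margin. STY2 was at 3.1, 1.59 and 2.01 CPM in the margin and at 0, 0 and 0.48 in the center (3.63 ± 0.67, adjusted p = 4.94e-04). STY1 had 24 reads in the margin and 3 in the center, a ratio of 9.4 (counting interval 2.86 to 48.8, adjusted p = 0.00164). In the list of 13 margin and lamina genes tested, 5 were higher and 1 lower, and the median was −0.016. The lower count was 0 with DESeq2 and without margin library 1, margin library 2, center library 1, center library 3 or pool 1.

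Among genes known from organ boundaries and the leaf base, those of the ALOG and BOP families are given first. Of the 5 ALOG and BOP genes tested, 4 were lower and none higher, with a median of −1.51. LSH10 was at 0.86, 1.34 and 1 CPM in the margin and 12.4, 15.7 and 14.7 in the center (−3.68 ± 0.2, adjusted p = 7.06e-14). LSH4 had 1 read in the margin and 78 in the center, a center to margin ratio of 66.4 (counting interval 11.6 to 2650, adjusted p = 1.42e-06). LSH6 was at 1.03, 1.71 and 1.58 CPM against 4.73, 3.96 and 3.96 (−1.51 ± 0.25, adjusted p = 8.58e-05). BOP2, which patterns the petiole, was at 2.06, 2.44 and 1.72 CPM against 3.4, 3.84 and 5.4 (−1 ± 0.27, adjusted p = 0.0119), but not without margin library 3 (adjusted p = 0.0681) or center library 3 (adjusted p = 0.0954). Of 16 KNOX and BELL homeodomain genes 3 were higher, KNAT4, BLH2 and KNAT7, and 1 was lower, with a median of 0.12. The higher count was 0 with DESeq2 and without margin library 2, center library 1 or pool 1, and 1 with only the 6 Col-0 libraries and without margin library 1 or center library 2, and with the block the counts were 3 and 2. The lower one, BLH8, known from the shoot tip, had 1 read in the margin and 35 in the center (ratio 29.8, interval 5 to 1210, adjusted p = 1.73e-04). Of 15 IDD, SHR and SCR genes none was higher and 4 were lower, with a median of −0.074, 2 without margin library 2 or center library 3, and with the block 1 higher and 6 lower. IDD15, a gravitropism regulator of the same family as JKD, was at 1.72, 1.59 and 0.861 CPM against 4.73, 3.84 and 5.64 (−1.77 ± 0.28, adjusted p = 6.21e-05).

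Leaf polarity genes had 1 of 16 higher and 3 lower. The lower ones included YAB5 of the abaxial YABBY family, at 8.09, 9.04 and 12.1 CPM against 18.1, 21.9 and 17.3 (−0.96 ± 0.13, adjusted p = 3.55e-06), its relative YAB2 (−0.85 ± 0.14, adjusted p = 6.4e-05) and ZPR1, a small inhibitor of adaxial HD-ZIP III proteins (−0.88 ± 0.19, adjusted p = 0.00193). The HD-ZIP II gene HAT1 differed more between leaf pools than between pieces. It was at 10.8, 25.2 and 12.3 CPM in the margin and 19, 33.3 and 23.4 in the center, lower in the margin of each pool, with adjusted p = 0.243 (−0.6 ± 0.3) and adjusted p = 6.23e-08 with the pool as a block.

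Mitotic genes were lower in the margin as a group. Of 38 tested, 28 were called lower and none higher, and the median was −0.71. In 34 the margin and center libraries did not overlap, against 28.7% of all loci tested. Members of a list are measured in the same libraries and are not replicates of each other. Without 1 library the count was 21 (margin library 2 or 3) to 27, and leaving out pool 1 gave 17. CDKB2;1, a kinase of the entry into mitosis, was at 17.4, 20.5 and 21.1 CPM in the margin and 30.2, 33.3 and 33.6 in the center (−0.71 ± 0.096, adjusted p = 4.82e-06). MAP65-3, which bundles microtubules in the cell division plane, was at 13.8, 11.5 and 16.4 CPM against 23.7, 26.3 and 26.2 (−0.88 ± 0.12, adjusted p = 5.46e-06). AUR1, the Aurora kinase of the spindle, was at 11, 9.53 and 11.2 CPM against 18.8, 18 and 24.9 (−0.97 ± 0.15, adjusted p = 7.48e-05), and the kinase subunit CKS2 was lower by 0.71 on the log2 scale (−0.71 ± 0.1, adjusted p = 1.58e-05). All 38 members had reads in each margin library.

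The other phases of the cycle differed less. DNA replication genes had 2 of 31 lower and none higher, with a median of −0.058, and with the block 4 were lower. Both calls, CDC45 and CDT1B, were lost when center library 1 was left out (adjusted p = 0.101 and 0.145), among others. Of 9 D-type cyclins, which start the cycle, CYCD3;1 was lower, at 29.9, 26.1 and 28.3 CPM against 37.6, 34.8 and 37.4 (−0.39 ± 0.077, adjusted p = 9.22e-04). The remaining 8 ranged from −0.38 to 0.18 and did not pass. CCS52B, an activator of the mitotic ubiquitin ligase, was lower as well (−0.75 ± 0.18, adjusted p = 0.0108), the 1 call among 13 genes of cell cycle inhibition and exit, with 1 higher and 1 lower under the block. Of 13 growth regulators 4 were lower and none higher, but 1 without margin library 1 or pool 1 and 2 without margin library 2, center library 1 or center library 3. ARGOS, an auxin-induced promoter of organ size, was at 0.344, 1.22 and 1 CPM against 1.46, 3.34 and 3.48 (−1.6 ± 0.38, adjusted p = 0.00441).

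Promoters of mitotic genes are shown because the group moved together and many are known to carry the mitosis-specific activator element bound by MYB3R factors. In the 250 bases before the gene start, 21 of 38 mitotic genes (55.3%) held the element's core AACGG on either strand, and 16 of the 28 called lower (57.1%). Over all 17696 promoters of loci tested the share was 22.4%, and over the 31 DNA replication genes 25.8%. MAP65-3 and AUR1 come from the genes above, and CYCB1;1 and KINESIN-12B were chosen after the values were seen, for having 3 copies each. The last of these encodes a motor of the division plane (POK and PAKRP1 family), and CYCB1;1 the B-type cyclin of mitosis. The sequences were read from TAIR10.1 with the RefSeq gene starts, and capitals mark AACGG or its reverse complement.
MAP65-3, chr5:20964538-20964787, minus strand: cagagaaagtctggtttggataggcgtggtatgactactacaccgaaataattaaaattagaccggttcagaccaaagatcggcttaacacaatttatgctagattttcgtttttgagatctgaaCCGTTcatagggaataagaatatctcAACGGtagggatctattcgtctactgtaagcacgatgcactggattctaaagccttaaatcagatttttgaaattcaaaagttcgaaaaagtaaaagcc
AUR1, chr4:15842193-15842442, plus strand: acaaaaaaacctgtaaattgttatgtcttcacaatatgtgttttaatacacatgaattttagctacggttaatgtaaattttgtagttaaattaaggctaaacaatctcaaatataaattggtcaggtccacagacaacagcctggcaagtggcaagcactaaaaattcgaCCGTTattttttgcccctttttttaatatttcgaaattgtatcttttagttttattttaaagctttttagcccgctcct
CYCB1;1, chr4:17624309-17624558, minus strand: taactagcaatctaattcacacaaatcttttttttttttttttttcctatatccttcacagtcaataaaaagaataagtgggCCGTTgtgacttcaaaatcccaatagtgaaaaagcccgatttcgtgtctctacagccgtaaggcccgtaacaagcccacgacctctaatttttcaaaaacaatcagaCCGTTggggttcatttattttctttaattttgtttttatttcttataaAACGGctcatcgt
KINESIN-12B, chr3:8518886-8519135, plus strand: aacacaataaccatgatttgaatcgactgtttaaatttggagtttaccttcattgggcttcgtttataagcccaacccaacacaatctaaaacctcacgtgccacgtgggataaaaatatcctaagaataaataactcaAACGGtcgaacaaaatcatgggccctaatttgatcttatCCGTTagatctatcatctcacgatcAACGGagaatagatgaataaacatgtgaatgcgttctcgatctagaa
A match describes these letters and is not a measured binding site. CYCB1;1 was lower by 1.1 on the log2 scale (−1.1, adjusted p = 7.54e-04) and KINESIN-12B by 0.96 (−0.96, adjusted p = 3.43e-04). CDKB2;1 and CKS2 (both −0.71) had no such letters in their windows, which overlap a neighbouring gene, unlike the windows printed here.

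Beta tubulins, the building blocks of microtubules, were lower in the margin in 6 of 9 cases and in all 9 with the block, with a median of −0.33. The range ran from TUB2 (−0.12 ± 0.057, adjusted p = 0.178) to TUB1, at 6.54, 5.5 and 5.02 CPM against 12.1, 14.7 and 15.9 (−1.33 ± 0.15, adjusted p = 2.75e-07). TUB6 was at 163, 151 and 159 CPM against 234, 234 and 238 (−0.58 ± 0.056, adjusted p = 1.64e-08). Wall-loosening genes had 3 of 34 higher and 8 lower, and with the block 11 and 10. Several xyloglucan-remodelling enzymes were lower. XTH7 was at 19.8, 15.1 and 14.6 CPM in the margin and 60.2, 51 and 52 in the center (−1.73 ± 0.11, adjusted p = 3.05e-11). XTH8 (−1.39 ± 0.15, adjusted p = 2.12e-06) and XTH32 (−1.13 ± 0.09, adjusted p = 3.28e-10) were lower by less, and the expansin-like gene EXLB1 by more (−1.91 ± 0.15, adjusted p = 1.97e-10). The endoglucanase gene GH9B8 was at 1.03, 2.32 and 1.58 CPM against 10.3, 10 and 10.8 (−2.59 ± 0.19, adjusted p = 7.88e-11). No wall gene was called higher without margin library 3 or center library 2. None of the 3 called rises, of EXPA6, EXPA8 and XTH6, held without margin library 3 (adjusted p = 0.162, 0.122 and 0.0755).

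Stomatal genes were described as an early and a late group, and the difference between the groups was not tested. Of 20 stomatal lineage genes 5 were lower in the margin and none higher, with 3 without margin library 2, margin library 3, center library 3 or pool 1. TMM, a receptor that spaces stomata, was at 30.4, 28.9 and 35.9 CPM in the margin and 45.9, 39.1 and 45 in the center (−0.45 ± 0.08, adjusted p = 2.62e-04). BASL, which marks the pole of the asymmetric division, was at 6.88, 6.6 and 7.61 CPM against 13.7, 9.78 and 13.6 (−0.82 ± 0.17, adjusted p = 0.00115). SPCH, the factor that starts the lineage, was lower by a log2 difference of −0.53 ± 0.12 (adjusted p = 0.00468), and was at adjusted p = 0.0525 without pool 1. Of 13 genes of mature guard cells 4 were higher and none lower, with a median of 0.45, and all 13 had a positive difference. In 10 the margin and center libraries did not overlap, against 28.7% of all loci tested. The count of called guard cell genes was 9 with the block, and 1 without margin library 3 or center library 2 and 2 without center library 1. KAT1, the inward potassium channel, was at 31.7, 38 and 36.5 CPM against 23.4, 21.1 and 20.7 (0.71 ± 0.1, adjusted p = 1.38e-05).

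In other epidermal groups most genes were not called. The counts stand beside 11.9% called over all loci tested, or 22.2% with the block. MYB16, which controls cuticle formation, was at 54.4, 39 and 51.7 CPM in the margin and 34.7, 26.7 and 34.3 in the center (0.59 ± 0.12, adjusted p = 0.0023). PDF1, an epidermal protein gene, was at 216, 230 and 218 CPM against 299, 297 and 299 (−0.43 ± 0.076, adjusted p = 2.65e-04). The cutin acyltransferase gene DCR was at 14.5, 20.9 and 16.4 CPM against 38.7, 45.7 and 38.2 (−1.23 ± 0.27, adjusted p = 0.0105), but at adjusted p = 0.0743 without pool 1. These 3 were the calls among 24 epidermis and cutin genes, and with the block 6 were higher and 4 lower. Trichome genes had 3 of 22 higher and 2 lower. The higher ones included MYB23, a paralog of the trichome initiator GL1 (0.96 ± 0.19, adjusted p = 7.3e-04), and the lower ones EGL3 (−1.07 ± 0.25, adjusted p = 0.00468). EGL3 encodes a partner of these MYB proteins, and its call was at adjusted p = 0.0562 without pool 1. Wax genes had 2 of 23 higher, and with the block 9 higher and 2 lower.

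Photosynthesis genes were higher in the margin by a small and even amount. Of 38 light-harvesting and photosystem genes 23 were called higher and none lower, the median was 0.26, and 37 had margin and center libraries that did not overlap, against 28.7% of all loci tested. With the block 37 were called. The call count rested on the libraries, with 2 without margin library 3, 4 without center library 2, 7 without center library 1, 9 without center library 3, 13 without margin library 2, 20 without margin library 1 and 5 without pool 1. PSAD-2, of photosystem I, was at 1360, 1370 and 1500 CPM in the margin and 1070, 1070 and 1120 in the center (0.38 ± 0.08, adjusted p = 0.00189). PSBQ-2, of the oxygen-evolving complex, was at 3010, 3110 and 3370 CPM against 2470, 2560 and 2570 (0.32 ± 0.07, adjusted p = 0.00244). Within the margin, library 3 was the highest for both. LHCB5, an antenna protein, was at 9930, 10100 and 10900 CPM against 8570, 8620 and 8260 (0.28 ± 0.081, adjusted p = 0.0199), and at adjusted p = 0.0991 without margin library 3. Summed over the 38 genes, the margins held 199000, 205000 and 220000 CPM and the centers 174000, 173000 and 175000.

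Enzymes of carbon fixation followed the same direction. Of 23 Calvin cycle and carbonic anhydrase genes 6 were higher and none lower, and with the block 17 were higher and 2 lower. CA1, a carbonic anhydrase, was at 4190, 4210 and 4540 CPM in the margin and 3340, 3270 and 3350 in the center (0.38 ± 0.083, adjusted p = 0.00241). PRK, the kinase that regenerates the CO2 acceptor, was higher by 0.27 ± 0.064 (adjusted p = 0.00474). Of 22 chlorophyll synthesis genes 3 were higher and none lower, with 12 under the block. PORC, which reduces protochlorophyllide in light, was at 516, 515 and 529 CPM against 440, 450 and 410 (0.26 ± 0.059, adjusted p = 0.00288). The other calls, PORB and CRD1, were lost without margin library 3 (adjusted p = 0.141 and 0.112). CPM is a share of all gene reads, of which the 10 most abundant genes of each library took 13.1% to 14.1% in the margin and 11.9% to 12.3% in the center.

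Genes of sugar loading into the phloem were among those higher in the margin. Of 30 phloem genes 9 were higher and 2 lower, with a median of 0.26, and with the block 11 and 4. SUC2, the sucrose loader of companion cells, was at 189, 168 and 177 CPM in the margin and 109, 98.1 and 106 in the center (0.77 ± 0.11, adjusted p = 1.24e-04). SWEET11, which releases sucrose from phloem parenchyma, was at 56.8, 59.4 and 63.9 CPM against 26.3, 24.5 and 29.5 (1.16 ± 0.16, adjusted p = 1.64e-04). HA3, the proton pump of companion cells, was at 196, 168 and 176 CPM against 122, 109 and 110 (0.66 ± 0.08, adjusted p = 1.89e-06), and the lectin gene PP2-A1 was higher by 0.52 ± 0.088 (adjusted p = 1.28e-04). These 4 genes, named because they were called, separated fully between the pieces, as did 2062 of all 2113 called loci. Of the 30 phloem genes 14 did so, against 28.7% of all loci tested. The 2 lower members, AAP2 and SULTR2;1, carry amino acids and sulfate and are described with the nutrients. Of 27 xylem and secondary wall genes none was higher and 2 were lower, with a median of −0.097. XCP1, a protease of dying vessel cells, was at 17.7, 19.5 and 15.8 CPM against 30, 26.1 and 23.3 (−0.58 ± 0.11, adjusted p = 3.98e-04). The second, FLA12, was lost without several libraries, margin library 1 among them. Of 16 procambium and HD-ZIP III genes 2 were higher and 1 lower, with 1 higher with DESeq2 or when any 1 library was left out. TMO5 was higher (0.69 ± 0.14, adjusted p = 0.0016) and the HD-ZIP III gene ATHB-15 was lower (−0.41 ± 0.078, adjusted p = 5.31e-04).

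Most genes of the aliphatic glucosinolate pathway were lower in the margin. Glucosinolates are sulfur-rich defense compounds of the cabbage family, and the aliphatic branch builds them from chain-elongated methionine. Of 24 genes tested 20 were lower in the margin and none was called higher, with a median of −1.42. In 23, counting either direction, the margin and center libraries did not overlap, against 28.7% of all loci tested. The count was 18 to 20 when a library was left out and 16 without pool 1. The fallers included regulators, chain elongation, core synthesis and side chain genes. Of the regulators, MYB29 was at 7.05, 5.37 and 4.88 CPM in the margin and 34.4, 27.1 and 28.6 in the center (−2.4 ± 0.2, adjusted p = 1.42e-07). MYB28 was at 45.1, 38.1 and 38 CPM against 68.3, 56.5 and 62.1, a smaller difference of −0.63 ± 0.086 (adjusted p = 5.97e-06).

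Differences among the enzymes were uneven. Of the called ones BCAT3 (−0.34) and IIL1 (−0.27) were closest to 0, and FMO GS-OX2 was the 1 member with a positive difference (0.63, not called, and called with the block). These 3 were chosen after their values were seen. BCAT4 (AT3G19710), the aminotransferase that opens methionine chain elongation, was at 5.68, 5.5 and 6.17 CPM in the margin and 54.8, 55.4 and 65.5 in the center (−3.34 ± 0.5, adjusted p = 7.86e-04). IPMI2, of the isomerase of that cycle, was at 17.9, 18.1 and 15.4 CPM against 76.8, 68.5 and 78.7 (−2.12 ± 0.27, adjusted p = 1.98e-04). CYP79F1 (AT1G16410), the first enzyme of the core structure, was at 17.4, 17.1 and 13.1 CPM against 138, 130 and 137 (−3.09 ± 0.39, adjusted p = 2.24e-04). GSTF11 (AT3G03190), of the conjugation step, was at 0.86, 1.34 and 1.29 CPM against 10.7, 9.78 and 13.9 (−3.25 ± 0.47, adjusted p = 3.71e-04). FMO GS-OX1, which oxidises the side chain, was at 2.92, 3.18 and 2.15 CPM against 18.4, 14.7 and 15.9 (−2.56 ± 0.27, adjusted p = 3.03e-06). The fit shares 1 spread per gene over all 6 groups, mutants included. With the pool as a block CYP79F1 was at adjusted p = 3.48e-53, from a test that also borrows spread across genes. So small a value does not measure the spread of this gene between 3 pools. AK3 (AT3G02020), an aspartate kinase that feeds methionine synthesis, was at 2.75, 3.18 and 2.58 CPM against 26.9, 29.8 and 30.6 (−3.34 ± 0.47, adjusted p = 4.64e-04).

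The indole branch is made from tryptophan. Of 18 genes of this branch and of camalexin synthesis 3 were higher and none lower, with a median of 0.065, and with the block 5 were higher and 4 lower. CYP71A13, of camalexin synthesis, was at 14.1, 15.6 and 19.8 CPM in the margin and 7.16, 7.55 and 10.9 in the center (0.95 ± 0.18, adjusted p = 3.87e-04). CYP79B2, the entry enzyme from tryptophan, was at 35.1, 42.3 and 39 CPM against 15.3, 15.9 and 13.8 (1.38 ± 0.33, adjusted p = 0.0171), but at adjusted p = 0.0649 without center library 3, and the count was 1 without center library 2 or 3, margin library 3 or pool 1. Genes of breakdown and transport had 2 of 18 higher and 7 lower, with 4 lower without margin library 2, 3 without pool 1, and 1 higher without any single library. GTR2, which loads glucosinolates into phloem, was at 59.7, 58.3 and 55.7 CPM in the margin and 28.4, 34.8 and 31.1 in the center (0.88 ± 0.077, adjusted p = 2.22e-09). The fallers included MBP2 (AT1G52030), a myrosinase-binding protein (−3.52 ± 0.59, adjusted p = 7.99e-04), and JAL30, a jacalin-type lectin, at 0, 1.59 and 1.15 CPM against 5.82, 8.05 and 6.13 (−2.73 ± 0.37, adjusted p = 2.06e-05). The related lectin gene JAL23 (−4.36 ± 1.19, adjusted p = 0.0318) was not called without margin library 2 (adjusted p = 0.113), among others.

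Several iron genes were higher in the margin, and the count was 10 or 11 whichever library was left out but 5 when only the 6 Col-0 libraries were fitted. Of 23 genes of the iron deficiency response 10 were higher and 1 lower, with a median of 0.33. The Ib subgroup of bHLH factors, which iron shortage induces, was barely detected in the center. BHLH38 was at 1.89, 4.27 and 6.17 CPM in the margin and 0.121, 0.248 and 0.48 in the center (3.82 ± 0.54, adjusted p = 1.6e-05). BHLH39 had 61 reads in the margin and 3 in the center, a ratio of 23.9 (counting interval 7.8 to 119, adjusted p = 5.33e-06). BHLH100 was at 1.55, 4.52 and 10.3 CPM against 0.364, 0.495 and 0.601 (3.48 ± 0.61, adjusted p = 8.38e-04), and at adjusted p = 0.0952 when only the 6 Col-0 libraries were fitted. In all 3 genes pool 1 had the lowest margin and pool 3 the highest. The transporter gene YSL3, for iron complexed with nicotianamine, was at 15.3, 20 and 17.4 CPM against 11.6, 11 and 11 (0.66 ± 0.13, adjusted p = 0.00111). NAS4, which makes nicotianamine, was the lower one (−1.1 ± 0.24, adjusted p = 0.00402). FRO2, the ferric reductase of root iron uptake, was at 2.92, 1.47 and 1.87 CPM against 0.606, 0.248 and 0.961 (1.71 ± 0.44, adjusted p = 0.0104), but not called without margin library 1 (adjusted p = 0.0669), center library 2 (adjusted p = 0.0736) or pool 1 (adjusted p = 0.133).

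Ferritin levels differed between leaf pools. FER1, the ferritin induced by iron, was at 47.5, 32.9 and 22 CPM in the margin, and at 39.1 and 31.1 in the centers of pools 1 and 2, with a center mean of 30.1 ± 9.54 (SD, n = 3; log2 difference 0.17 ± 0.28, adjusted p = 0.781). Pool 1 was thus highest in FER1 in both pieces and lowest in the margin levels of BHLH38, BHLH39 and BHLH100, and it is also the pool of the margin library that stood apart, whose part in this was not tested. Of 9 genes of storage and organelle iron 3 were higher, all of them ferric reductases, and with the block 5 were higher. FRO8, of mitochondria, was at 88.2, 79.8 and 101 CPM against 50.3, 49.5 and 57 (0.77 ± 0.11, adjusted p = 1.32e-04). FRO7, of chloroplasts, was at 59.2, 58.5 and 76.4 CPM against 45.9, 43.3 and 50.7 (0.47 ± 0.094, adjusted p = 0.00105). The third, FRO6, was lost without margin library 3 (adjusted p = 0.0911).

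Sulfur genes had both large rises and large falls, with 4 of 27 higher and 3 lower, and with the block 8 and 6. DES1 (AT5G28030), which releases sulfide from cysteine, was at 19.3, 14.7 and 12.1 CPM in the margin and 3.28, 2.48 and 2.52 in the center (2.46 ± 0.2, adjusted p = 3.06e-10). SULTR1;2, a high-affinity sulfate importer best known from roots, was at 2.58, 3.05 and 2.73 CPM against 0, 0.248 and 0.36 (3.7 ± 0.47, adjusted p = 2.07e-06). APR2, the reductase that commits sulfate to assimilation, was at 154, 158 and 158 CPM against 107, 98.6 and 91.2 (0.66 ± 0.13, adjusted p = 0.0029). Other sulfate transporters were called in both directions. SULTR2;2, a low-affinity carrier of the vasculature, was at 7.74, 7.69 and 9.76 CPM in the margin and 4.73, 5.2 and 5.04 in the center (0.75 ± 0.19, adjusted p = 0.0102), but at adjusted p = 0.0767 without margin library 3 and 0.0536 without pool 1. SULTR2;1, its relative, was at 45.6, 38.7 and 46.8 CPM in the margin and 106, 102 and 119 in the center (−1.32 ± 0.18, adjusted p = 3.69e-04). SULTR3;5, which acts with it in root to shoot transport, had 3 reads in the margin and 72 in the center, a ratio of 20.4 (counting interval 6.71 to 101, adjusted p = 1.12e-05).

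Nitrogen genes showed a similar split, with 8 of 33 higher and 5 lower, and with the block 14 and 8. Among the cytosolic glutamine synthetases, GLN1;4 (AT5G16570) was at 8.09, 9.89 and 13.5 CPM in the margin and 2.79, 1.98 and 2.88 in the center (2.04 ± 0.23, adjusted p = 1.89e-07). GLN1;1 was at 35.3, 42.5 and 39.8 CPM against 14.8, 20.2 and 21 (1.08 ± 0.12, adjusted p = 1.58e-06). GLN1;3 was lower, at 35.1, 39.6 and 41.1 CPM against 47.2, 49 and 54.8 (−0.38 ± 0.073, adjusted p = 6.49e-04). Isoforms of 1 enzyme were thus distributed in opposite directions across the leaf. Amino acid transporters were also called in both directions. The nitrate importer gene NRT2:1 had 22 reads in the margin and 1 in the center, a ratio of 25.9 (counting interval 4.18 to 1070, adjusted p = 0.00152). LHT1, which imports amino acids into mesophyll, was at 2.92, 4.27 and 3.59 CPM in the margin and 0.243, 0.372 and 0.601 in the center (3.12 ± 0.38, adjusted p = 1.03e-06), and AAP1 was higher by 0.57 ± 0.083 (adjusted p = 1.79e-05). AAP2, which moves amino acids from xylem to phloem, was at 0.172, 2.44 and 1.15 CPM against 5.22, 7.43 and 6.01 (−2.17 ± 0.34, adjusted p = 1.51e-04). AAP4 was lower too (−1.74 ± 0.26, adjusted p = 3.76e-05).

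Beside PHT1;4, the phosphate group had 4 of 24 higher and 3 lower, and with the block 4 and 5. PHO1;H1, a phosphate exporter of the vasculature, was at 0.344, 0.366 and 0.287 CPM in the margin and 2.67, 3.34 and 3.12 in the center (−3.13 ± 0.39, adjusted p = 1.16e-06). The phosphatase gene PAP12 was at 8.43, 6.72 and 9.19 CPM against 11.6, 16 and 18.3 (−0.93 ± 0.14, adjusted p = 4.4e-05). The higher count was 1 without center library 1, center library 2 or pool 1 and 2 without margin library 1, and PHT1;4 was called in each case. The list median was 0.049.

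**Figure D3:**
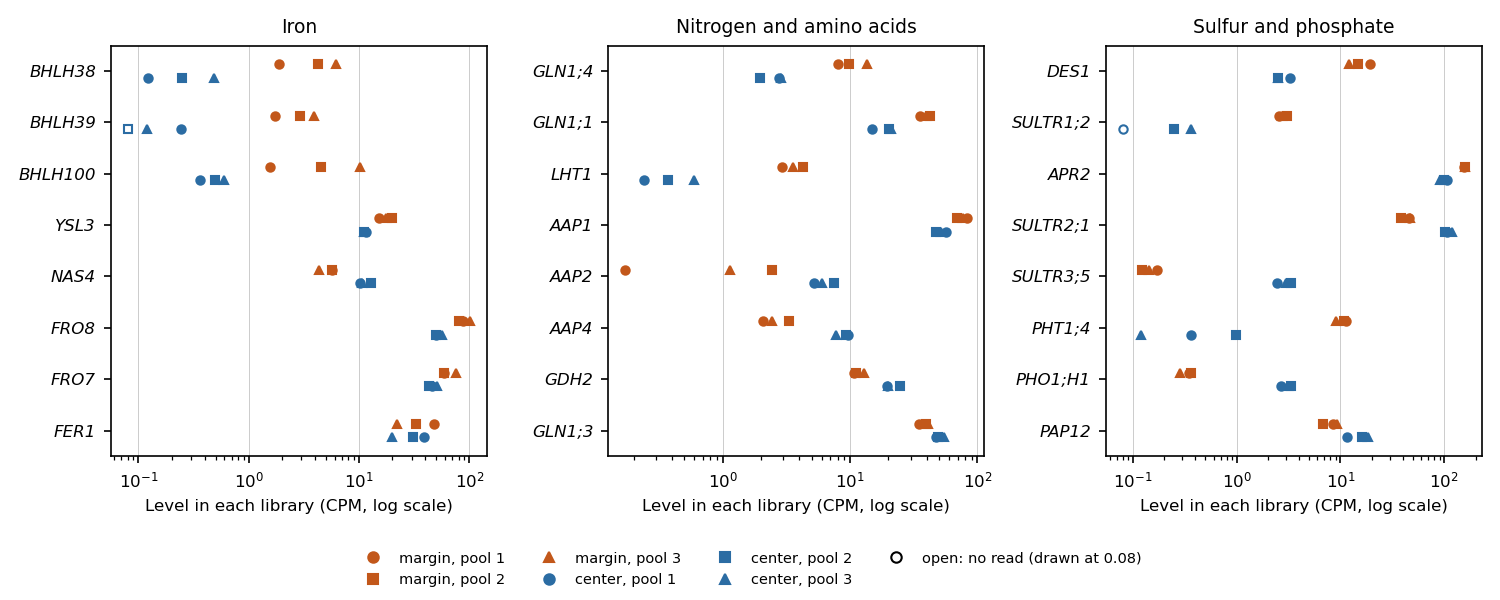
Levels in each Col-0 library (CPM, log axis) of iron, nitrogen and amino acid, and sulfur and phosphate genes, with margin in orange, center in blue and 1 marker shape per leaf pool. DES1, SULTR1;2, GLN1;4, LHT1 and PHT1;4 lie to the right in the margin, SULTR2;1, SULTR3;5, AAP2 and PHO1;H1 lie to the right in the center, and FER1 spreads by pool in both.

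Other hormone pathways had calls in both directions. Cytokinin genes had 3 of 25 higher and 3 lower, and with the block 6 and 5. CKX5, which degrades cytokinin, was at 4.47, 2.44 and 2.73 CPM in the margin and 0.849, 0.743 and 0.36 in the center (2.25 ± 0.38, adjusted p = 1.27e-04). ARR7, a response inhibitor, was at 61.8, 44.1 and 52.5 CPM against 41.2, 32.4 and 32.5 (0.57 ± 0.12, adjusted p = 0.00316). The lower members, WOL, ABCG14 and ARR5, were all lost without margin library 2 (adjusted p = 0.101, 0.137 and 0.0811). Gibberellin genes had 1 of 20 higher and 3 lower, and with the block 2 and 5. GA2, for the kaurene synthase of early gibberellin synthesis, was at 10.1, 8.67 and 8.76 CPM against 21.6, 23 and 20.7 (−1.25 ± 0.11, adjusted p = 1.94e-09). GASA6, a gibberellin-regulated peptide, was at 228, 217 and 218 CPM against 130, 110 and 110 (0.92 ± 0.2, adjusted p = 0.00862). Brassinosteroid genes had 3 of 24 in each direction, and with the block 7 higher and 6 lower. The receptor gene BRL3, known from phloem, was at 8.26, 9.53 and 12.5 CPM against 6.31, 3.72 and 4.2 (1.09 ± 0.21, adjusted p = 4.99e-04), and the transcription factor gene BES1 was lower by 0.52 (−0.52 ± 0.099, adjusted p = 7.85e-04).

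Defense genes and genes of wounding, touch and cold varied between leaf pools. PCC1 (AT3G22231), a pathogen-responsive gene, was at 4.99, 10.3 and 11.5 CPM in the margin and 39.9, 69.8 and 84.3 in the center (−2.82 ± 0.47, adjusted p = 0.00177). LURP1, another, was at 0.86, 2.2 and 3.01 CPM against 6.67, 11.6 and 17.7 (−2.51 ± 0.59, adjusted p = 0.0146), and at adjusted p = 0.0527 to 0.0568 without margin library 1, margin library 2 or center library 3. Both were lower in the margin of each pool and lowest in pool 1 in both pieces. Of 26 salicylate defense genes 1 was higher and 3 lower, and with the block 4 and 5. None of 17 genes of wounding, touch and cold was called by edgeR's test, none had groups without overlap, and their median was 0.72. With the block 7 of the 17 were called higher. Leaf pool 2 stood apart, and there the 17 genes summed to 1080 CPM in its margin and 585 in its center, against 158 and 204 in the other margins and 193 and 133 in the other centers. Among the 7, TCH2, a calmodulin-like gene induced by touch, was at 33.9, 99.3 and 36.5 CPM in the margin and 32, 56.2 and 21.1 in the center (blocked adjusted p = 1.21e-06), and was chosen after its values were seen. Whether handling of the tissue entered these or other differences was not tested.

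**Figure D4:**
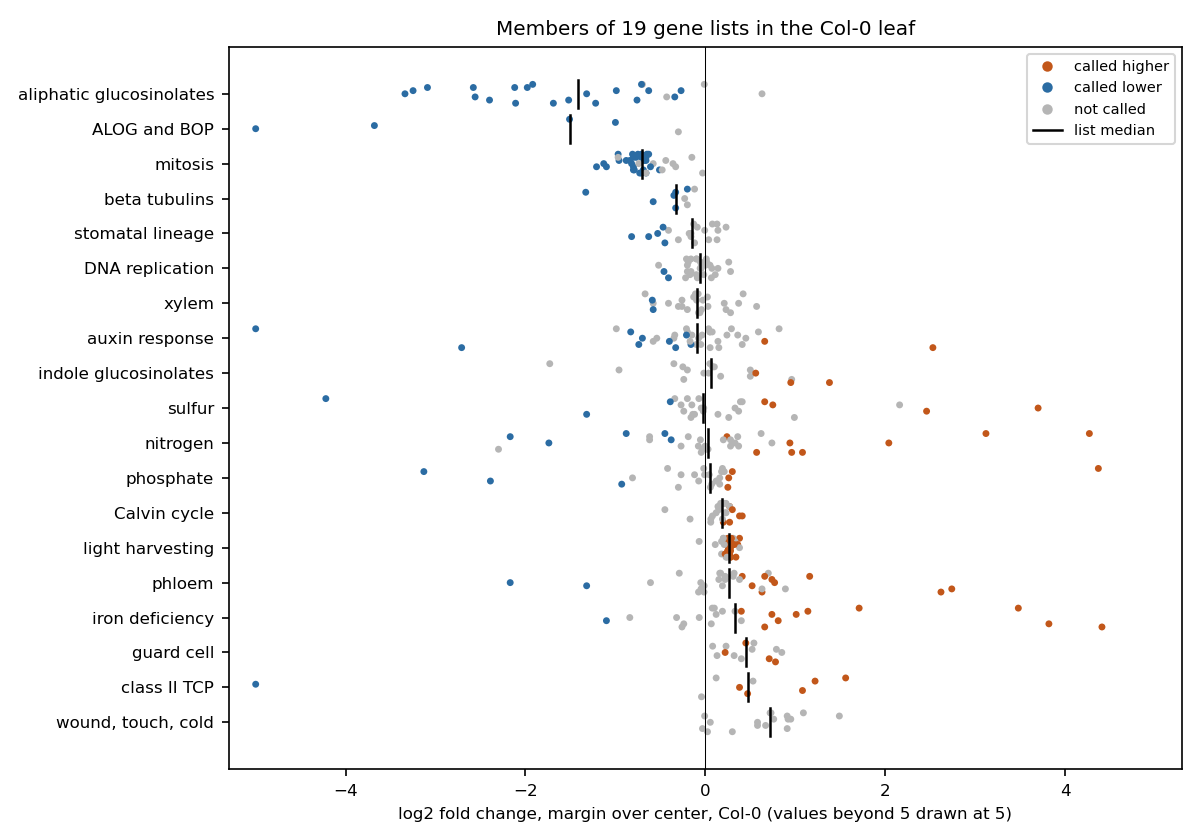
Log2 fold change of margin over center in Col-0 for each tested member of 19 gene lists, with the list median as a bar, called members in colour and the others in grey. Members with no or few reads in 1 group are drawn at their fitted value, which is no bound, and those beyond 5 at 5. The aliphatic glucosinolate list has its median at −1.42, mitosis at −0.71 and light harvesting at 0.26, while the wounding list at 0.72 has no called member (0 of 17).

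The wild-type differences were set beside those of the mutants. The double mutant had 1374 loci called between margin and center (7.74%) and the quadruple mutant 4579 (25.8%). Of the 990 loci higher in the Col-0 margin, 220 (22.2%) were also called higher in the double mutant, which is 47.8% of its 460 (2.59% of loci tested), and 4 were called lower. Of the 1123 loci lower in Col-0, 469 (41.8%) were also lower in the double mutant, 51.3% of its 914 (5.15%), and 5 were higher. In the quadruple mutant 171 of the 990 (17.3%) were also higher, 7.84% of its 2180 (12.3%), and 221 were called lower. Of the 1123, 459 (40.9%) were also lower, 19.1% of its 2399 (13.5%), and 272 were called higher. Tested as an interaction, the margin to center difference in the quadruple mutant differed from that in Col-0 at 3149 loci (17.7%), 1493 upward (8.41%) and 1656 downward (9.32%), and in the double mutant at 120 (0.676%). The second count was 1477 with the block, 43 to 77 when any 1 Col-0 library was left out (43 without margin library 1) and 36 without pool 1. The first was 5115 with the block. Both interactions use the same Col-0 libraries.

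By gene group, the interaction with the quadruple mutant was called for 34 of the 38 mitotic genes, whose median was −0.71 in Col-0, 0.039 in the double and 0.86 in the quadruple mutant. It was called for 35 of the 38 light-harvesting genes, with medians of 0.26, 0.04 and −0.32. The aliphatic glucosinolate genes kept a lower median in all 3 genotypes, −1.42, −1.15 and −2.71, with 7 of 24 interactions called. For the CIN-class and other class II TCP genes the interaction was called for none of 9 in either mutant, with medians of 0.47, 0.44 and 0.28. These 9 include the mutated genes, TCP2 and TCP4 in both mutants and TCP3 and TCP10 in the quadruple mutant. Reads of those genes there come from mutated loci. The interaction of TCP10 with the quadruple mutant was at adjusted p = 0.0529, and the absence of a call does not show equal differences. TAA1, YUC2, AIR3, DES1 and NGA1 were higher in the margin of all 3 genotypes.

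**Figure D5:**
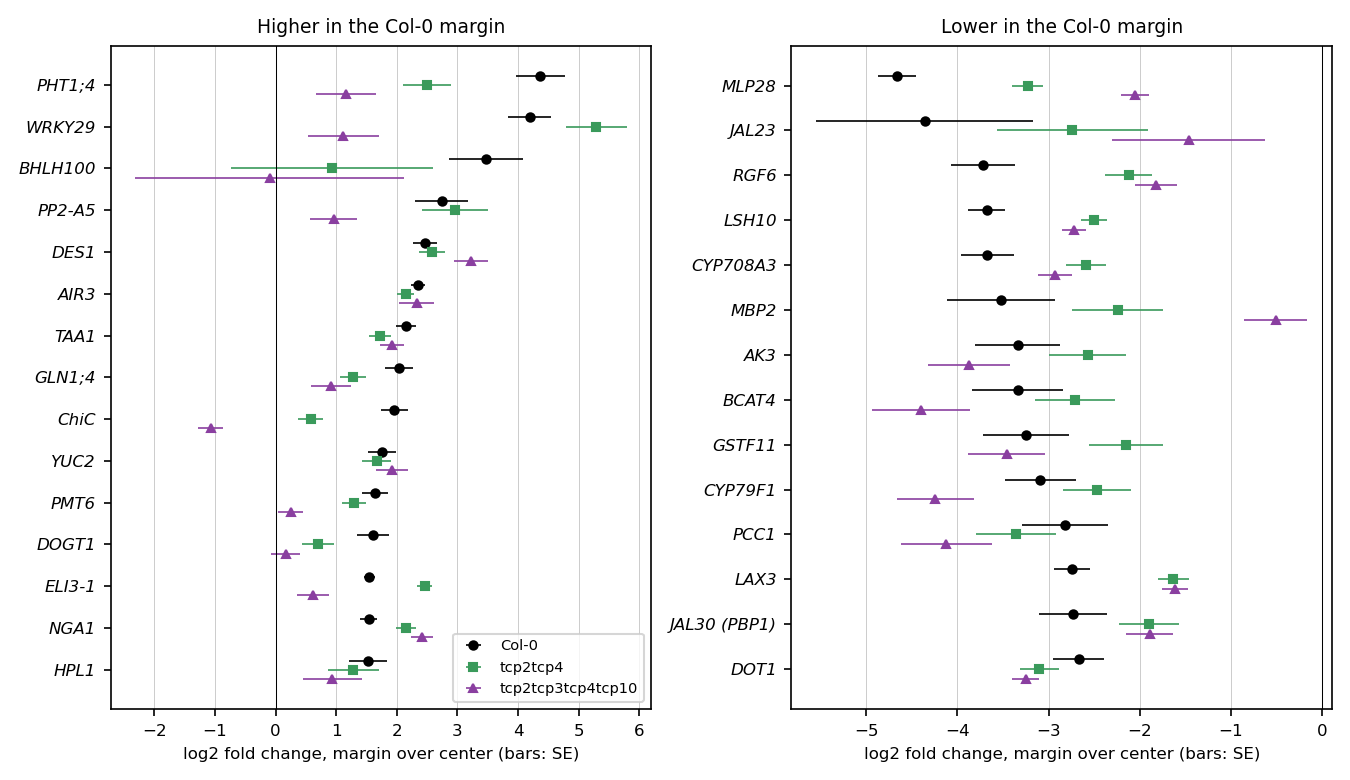
Log2 fold change of margin over center with its SE in Col-0 (black circles), tcp2tcp4 (green squares) and tcp2tcp3tcp4tcp10 (purple triangles), for the same genes with a symbol. JKD, with 1 margin read in Col-0, is left out. AIR3, TAA1, YUC2, BCAT4 and CYP79F1 stay on 1 side in all 3 genotypes, and ChiC is at 1.96 in Col-0 and on the other side of 0 in the quadruple mutant.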

How the data were processed

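The deposited table holds whole-number read counts per locus for 18 libraries, not normalized, as the authors made it. Per the submitters' processing notes the genome was TAIR10 and the tools were edgeR 3.8.6, HTSeq 0.7.2 and TopHat2 2.0.13. No label gives program options, strand or annotation release. The table's 5 summary rows were left out (in Col-0, reads in no gene came to 0.5% to 0.758% of all reads in the table and ambiguous ones to 1.5% to 1.57%). Of 33602 loci, 32835 (97.7%) matched a RefSeq gene for a symbol.

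Counts were fitted with edgeR 4.0.16 (R 4.3.3, limma 3.58.1): loci kept by filterByExpr (17763), TMM scaling, 6 group means over all 18 libraries and the robust quasi-likelihood test of margin minus center, two-sided, with Benjamini-Hochberg adjustment over all loci. CPM is counts per 1000000 gene reads with TMM scaling. The 6 Col-0 libraries held 6389212 to 9034025 gene reads, and the median SE was 0.127 (log2). Each SE is the absolute log2 difference divided by the square root of the test's F statistic. It thus rests on a spread shared with the mutant libraries and not on the Col-0 libraries alone. Nothing in the labels says whether replicates came from separate sowings, so p-values measure the spread between these libraries. The test also draws the spread of each gene towards that of other genes.

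Margin and center libraries share repetition numbers. Over the 5000 most variable loci, same-numbered pieces correlated in all 9 pairs (r of deviations from group means, 0.196 to 0.384; in Col-0 0.218, 0.384 and 0.208, against −0.238 to 0.0383 for other pairs), so the number was used as a block in an alternative fit. Other alternatives were DESeq2 1.42.0, RLE scaling, no filter, only the 6 Col-0 libraries, and leaving out each library. Leaving out leaf pool 1 was added after seeing the data.

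Members and gene lists (55 lists, 1016 loci tested) were chosen with earlier results of these data known. Named genes are the 15 highest and 15 lowest called with a symbol, at least 5 CPM and no overlap, the 10 lowest adjusted p, the 10 most abundant called, up to 4 called per direction in each list, every tested member of lists of at most 10, and the miR319-targeted TCP genes. Ratios of few reads have 95% exact intervals and a floor of 3 counts over a group, which cover counting error only. Promoters are 250 bases before the RefSeq gene start in TAIR10.1. Lists not described above are summarised in the closing section. Of the auxin transport list, 1 counted member is not reported here.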

Additional observations from a re-analysis of the deposited data

Results flagged for a closer look

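These results were singled out because the margin to center difference in a mutant differed from that in Col-0 by the interaction test of edgeR with Benjamini-Hochberg adjustment. All use the same Col-0 libraries, and plant age differs with genotype. The single genes were chosen for the size of their Col-0 difference, which also enters the interaction. That choice alone favors smaller differences in a mutant. In the quadruple mutant, some genes higher in the Col-0 margin had smaller differences, by −3.21 for PHT1;4, −3.07 for WRKY29, −1.39 for PMT6, −1.43 for DOGT1 and −0.93 for ELI3-1 on the log2 scale. For ChiC the interaction was −3.03 and the direction was reversed, at 1.96 in Col-0 and −1.07 in the quadruple mutant (adjusted p = 2.71e-04 for margin against center there). NGA1 had a larger one, by 0.87. Some genes lower in the Col-0 margin were less low in the quadruple mutant, by 2.61 for MLP28, 1.9 for RGF6, 0.96 for LSH10, 3.02 for MBP2 and 1.13 for LAX3. BCAT4, CYP79F1, AK3, GSTF11, PCC1 and DOT1 were lower still there than in Col-0, with no interaction called (adjusted p = 0.219 to 0.897). In the double mutant the interaction was −1.38 for ChiC (adjusted p = 0.0306) and 0.91 for ELI3-1 (adjusted p = 0.00556). It was 1.43 for MLP28 (adjusted p = 0.0497) and 1.18 for LSH10 (adjusted p = 0.0494), both close to the threshold. Over all loci, the 120 calls of this interaction fell to 43 to 77 when any 1 Col-0 library was left out. Among the lists, the interaction with the quadruple mutant was called for 34 of 38 mitotic genes, 9 of 13 margin and lamina genes, 16 of 24 epidermis and cutin genes, 35 of 38 light-harvesting genes, 17 of 23 Calvin cycle genes and 14 of 27 sulfur genes, against 17.7% of all loci tested.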

How the results depend on the processing

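With the replicate block by leaf pool 3946 loci were called (2046 higher and 1900 lower), of which 2112 were among the 2113 of the unblocked fit. With the replicate block on only the 6 Col-0 libraries the counts were 3877, 2005 and 1872. Without leaf pool 1 they were 1300, 585 and 715. Leaving out 1 Col-0 library gave 1425 to 1760 calls, with 584 to 848 higher (584 without margin library 3, 659 without center library 2, 656 without center library 3) and 796 to 912 lower. The interaction with the quadruple mutant had 5115 calls under the block, and that with the double mutant 1477, 43 to 77 without 1 Col-0 library and 36 without pool 1. The cause was not tested. DESeq2 called 1536 loci, RLE scaling 2144, no filter 2118 and the 6 Col-0 libraries alone 2060. Of 224 named genes that were called, 135 kept their call in every alternative, 89 lost it in at least one, and none changed direction. Gene reads per library limit the genes near 1 CPM.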

Other observations

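Lists not described above are given here as counts in Col-0, with the counts under the leaf pool block after them. Over all loci tested 11.9% were called, and 22.2% with the block. Of 18 bundle sheath and idioblast genes 4 were higher (APR2, GTR2, SULTR2;2 and the myrosinase gene TGG1) and 2 lower (HA2 and MYB76), and 7 and 3, with 2 higher without margin library 3 or pool 1. Of 38 WRKY genes 4 were higher and 1 lower, and 10 and 2. Of 24 CRK kinase genes 3 were higher and none lower, and 5 and 0. Of 22 small signalling peptide genes 2 were higher and 2 lower, and 3 and 6, with none higher without margin library 2, center library 1, center library 3 or pool 1. Of 28 jasmonate genes 1 was higher (JMT) and 1 lower (AOC4), and 6 and 6, with none higher with DESeq2 or without margin library 1, margin library 2, margin library 3, center library 1 or pool 1, and none lower without pool 1.

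Of 8 HD-ZIP II genes 1 was higher (HAT2), and 1 and 1, with none higher with DESeq2, with only the 6 Col-0 libraries, or without margin library 3, center library 1, center library 2 or pool 1. Of 3 major latex protein genes 2 were lower (MLP28 and MLP423) in both fits, and 1 without pool 1 or any of the 6 libraries but center library 1. CLV1 was the 1 higher of 3 meristem genes in both fits, but not without pool 1, and FRO2 the 1 higher of 2 root genes in both fits, but not with DESeq2 or without margin library 1, center library 2 or pool 1. Of 18 phase change genes 4 were higher, and 5, but 1 with DESeq2 or without margin library 1, margin library 3, center library 2, center library 3 or pool 1. Of 20 flavonoid genes none was higher and 3 were lower, and 3 and 6, with none lower without margin library 1, margin library 3, center library 1, center library 2 or pool 1. Ribosome biogenesis (16 genes, median −0.092), sugar starvation (21 genes, median 0.065) and senescence (7 genes, median −0.018) had 0 calls by edgeR's test and by DESeq2, and 3, 8 and 1.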
